A study of Mus musculus with 8 samples.

Results

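The comparison described here sets proximal tubules taken 72 h after cisplatin against untreated proximal tubules, and rests on 4 of the 8 libraries of the series, 2 at 72 h and 2 at 0 h, chosen by the time in their titles. Mice of both groups were male C57BL/6 with no engineered allele named in the labels. The 72 h animals had received cisplatin into the peritoneum at 30 mg/kg. No dose is listed for the 0 h animals, and the labels do not say whether they received vehicle. Renal cortex was the source of the isolated proximal tubular cells, RNA was depleted of ribosomal RNA, and both linear and circular RNA were measured. The series calls its duplicates biological without naming separate animals, and the p-values therefore reflect only the spread between these libraries. The remaining 4 libraries, taken 24 and 48 h after the drug, shared the estimate of spread and are used below to place the 72 h values in time.

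Cisplatin is a platinum drug that crosslinks DNA. Proximal tubule cells take it up from the blood side through organic cation and copper transporters, which makes this segment the main site of its kidney toxicity. These cells normally reabsorb phosphate, glucose, amino acids and filtered protein across a brush border, burn fatty acids for energy, and make glucose and creatine precursors. After injury they are known to shed the brush border, to express proteins such as KIM-1 (gene Havcr1), NGAL (Lcn2) and osteopontin (Spp1), and to arrest in the cell cycle through p53 and p21 (Cdkn1a). A circRNA is an RNA ring closed when a downstream splice site is joined back to an upstream one, and it lacks the ends at which most RNA decay begins.

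Linear RNA was given in FPKM, fragments scaled to transcript length and mapped total, and totalled 351353 and 354145 at 72 h against 448667 and 452114 at 0 h. For every pair of values in this text, library a comes before library b of the same time. Rows above 0 numbered 16717 and 16707 at 72 h and 15629 and 15781 at 0 h. Mitochondrially encoded rows took 21.6% and 21.7% of the FPKM at 72 h and 25.5% and 24.7% at 0 h. FPKM do not give the depth of these libraries. The circRNA table summed to 16318 and 15455 back-splice reads at 72 h and to 13603 and 18171 at 0 h. The lowest correlation within a pair, over log2(FPKM + 1), was 0.9923, against 0.8574 for the highest between a 72 h and a 0 h library. Duplicates were not copies of one library: their circRNA counts differed by more than sampling noise, with a chi-square per degree of freedom of 1.39 at 72 h and 1.49 at 0 h. Some gene rows also span a neighbouring gene that has no row of its own. Such merged rows are named as they occur, and their value cannot be split between genes.

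Of 10757 rows tested with limma on log2(FPKM + 1), 4049 rose and 3486 fell at 72 h against 0 h at an adjusted p under 0.05, which is 37.6% and 32.4% of rows, or 70.0% in all. By at least 2-fold 1273 rose and 1210 fell. The 72 h and 0 h libraries did not overlap in 9319 rows (86.6%). Both shares are so high that a call for a single gene says little by itself, and the sizes of change and the counts within a gene list are the more telling values below. The median log2 change over all tested rows was 0.07. The split depends on scaling: with mitochondrial rows removed and totals made equal, 5429 rose and 2496 fell and the median was 0.35. List counts are therefore those of the unscaled FPKM, and lists whose direction against 0 h turns under another scaling are named with the setting. The counts include members below 1 FPKM in both 0 h libraries, which passed the filter only through libraries taken after cisplatin.

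**Figure D1:**
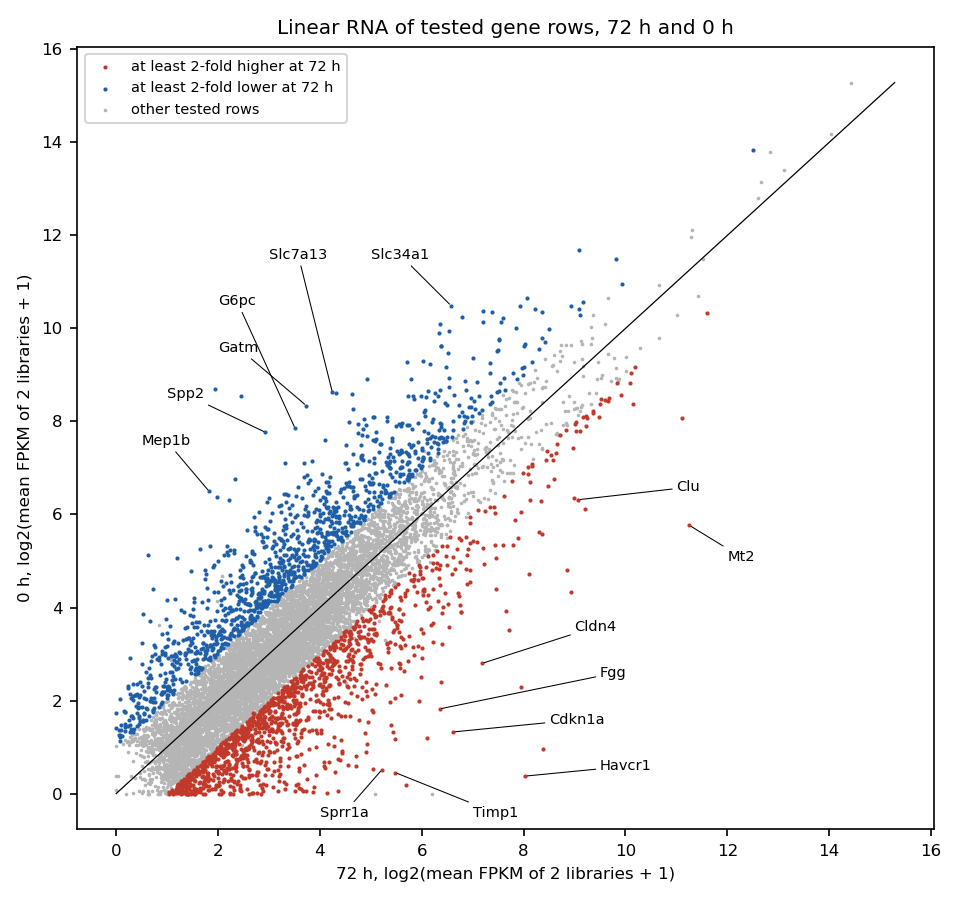
Mean level of every tested row at 72 h (x axis) and at 0 h (y axis), both as log2(mean FPKM + 1) of 2 libraries. Red points are the 1273 rows at least 2-fold higher at 72 h at an adjusted p under 0.05, blue points the 1210 at least 2-fold lower, and grey points all others. Havcr1, Timp1 and Sprr1a lie near the floor of the 0 h axis, while Slc34a1 is far above the diagonal on the 0 h side.

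Genes known as markers of tubular injury were raised, and 1 of them had the largest rise named here. Havcr1, the kidney injury molecule that lets tubule cells engulf dead neighbours, had 259.5 and 262 FPKM at 72 h, against 0.328 and 0.266 FPKM at 0 h. The groups lay far apart, with means differing 879-fold, and the log2 fold change was 7.66 ± 0.14 (SE, limma adjusted p = 1.68e-09). The Havcr1 row (mm10 chr11:46682647-46780361) overlaps the row of its relative Timd2, which fell to 46.2 and 42.2 FPKM at 72 h, against 60.6 and 68.9 FPKM at 0 h (log2 fold change -0.54). Timp1, an inhibitor of matrix metalloproteinases on chromosome X, had 43.3 and 43.9 FPKM at 72 h, against 0.422 and 0.312 FPKM at 0 h (5.03 ± 0.09, SE). Lcn2, the iron-binding lipocalin NGAL whose row also spans 1110008P14Rik, had 479.9 and 491 FPKM at 72 h, against 19.0 and 19.6 FPKM at 0 h (4.59). Secreted osteopontin, Spp1, reached 2285 and 2145 FPKM at 72 h, against 259.7 and 274 FPKM at 0 h (3.05), and clusterin, Clu, an extracellular chaperone, 532 and 543 FPKM at 72 h, against 82.8 and 74.7 FPKM at 0 h (2.76). In each of these genes both 72 h libraries lay above both 0 h libraries.

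All 17 tested injury markers rose, with a median log2 change of 3.39. Of these 4 were below 1 FPKM in both 0 h libraries and so passed the filter on low values only through libraries taken after cisplatin, and the other 13 rose too. Of the 23 markers listed, 18 had a row, and Krt20 and Umod were present only inside rows named for other genes. Fibrinogen gamma chain, Fgg, an acute-phase protein mostly made by liver, had 79.9 and 81.2 FPKM at 72 h, against 1.67 and 3.39 FPKM at 0 h (4.57 ± 0.20, SE), and Fgb, the beta chain, rose by 2.67. Ceruloplasmin, Cp, the copper-carrying ferroxidase, rose by 3.02. The smallest changes of the list were in the urinary markers Il18 (0.31) and Cst3, cystatin C (0.41). Clu, Cp, Il18 and Cst3 were singled out after their values were seen. All 6 tested keratin rows rose too (median 2.82), of which 5 reached 1 FPKM at 0 h. Keratins are intermediate filament proteins that adult proximal tubule scarcely makes. The row Krt12, which also spans Krt20, had 359 and 302 FPKM at 72 h, against 0.793 and 1.09 FPKM at 0 h (7.41 ± 0.13, SE), the second largest rise named here. Krt18 had 82.2 and 82.9 FPKM at 72 h, against 4.45 and 4.16 FPKM at 0 h (3.98), and Krt19 rose by 4.03. Sprr1a, a cornified envelope protein of stressed epithelia, had 33.5 and 38.9 FPKM at 72 h, against 0.658 and 0.193 FPKM at 0 h (4.72).

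Tight junction genes moved both ways. Cldn4, a sealing claudin of distal nephron, had 143 and 147 FPKM at 72 h, against 6.14 and 5.79 FPKM at 0 h (4.39 ± 0.06, SE, limma adjusted p = 6.17e-10). Cldn7 and Cldn1 each rose by 2.14 and Cldn3 by 2.01. Cldn2, the leaky cation pore of the proximal tubule, fell to 7.28 and 8.09 FPKM at 72 h, against 26.6 and 30.1 FPKM at 0 h (-1.76), and Cldn10 fell by 2.30 on the log2 scale. Of 20 claudin and junction genes tested 10 rose and 7 fell (median 0.16). Annexins and S100 proteins, calcium-binding partners of membranes, rose in 14 of 18 and fell in 2 (median 1.04). Of the 15 that reached 1 FPKM at 0 h, 12 rose and 2 fell. S100a6, whose row also spans S100a7a, had 248 and 242 FPKM at 72 h, against 4.26 and 3.48 FPKM at 0 h (5.66). Anxa2 rose by 3.39, Anxa3 by 3.47 and S100a10 by 3.07, while S100g, the vitamin D dependent calcium carrier calbindin-D9k, fell by 2.19 on the log2 scale. Markers of dedifferentiated tubule rose in 14 of 20 and fell in 2 (median 0.90). The scaffold gene Akap12 had 66.4 and 68.6 FPKM at 72 h, against 1.29 and 1.26 FPKM at 0 h (4.91), Cd24a rose by 2.25 and the adhesion molecule Vcam1 by 1.59. Itgb8 (-1.47) and Sema5a (-0.64) were the 2 that fell.

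A set of 3 strongly raised genes is printed here with the 250 bases before each RefSeq start (GRCm38.p6), because each holds the AP-1 motif TGANTCA, the site of Fos and Jun dimers, whose genes also rose. Capitals mark the motif. Sprr1a is at chr3:92485882-92486131 on the minus strand, Cldn4 at chr5:134946935-134947184 on the minus strand, and Plaur, the urokinase receptor (4.31), at chr7:24462233-24462482 on the plus strand.
Sprr1a: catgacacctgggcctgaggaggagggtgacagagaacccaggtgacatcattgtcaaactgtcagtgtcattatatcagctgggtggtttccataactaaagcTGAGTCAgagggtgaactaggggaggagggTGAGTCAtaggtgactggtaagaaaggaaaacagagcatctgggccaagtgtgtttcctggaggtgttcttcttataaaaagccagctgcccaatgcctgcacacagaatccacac
Cldn4: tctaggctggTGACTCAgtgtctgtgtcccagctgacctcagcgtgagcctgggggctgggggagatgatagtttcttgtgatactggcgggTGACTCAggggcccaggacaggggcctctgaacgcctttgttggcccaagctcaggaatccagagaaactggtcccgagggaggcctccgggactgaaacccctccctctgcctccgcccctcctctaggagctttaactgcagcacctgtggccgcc
Plaur: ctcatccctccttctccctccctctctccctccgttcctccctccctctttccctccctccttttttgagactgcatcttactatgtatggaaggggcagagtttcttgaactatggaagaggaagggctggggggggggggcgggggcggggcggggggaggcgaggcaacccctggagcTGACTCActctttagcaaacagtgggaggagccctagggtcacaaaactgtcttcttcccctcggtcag
The matches begin 146 and 116 bases before the start in Sprr1a, 240 and 158 in Cldn4, and 69 in Plaur. The motif reads the same way on both strands. Among the 202 rows with a promoter that rose by at least 4-fold it was present in 28 (13.9%), against 11 of 243 that fell by at least 4-fold (4.53%), 4.23% of 8313 tested rows with a promoter and 6.87% of all 27025 promoters. The pattern GGGNNTTCC, a short form of the NF-kB motif, stood at 10.9%, 2.88%, 6.28% and 4.88% in the same sets. It fixes the spacing between GGG and TTCC, so NF-kB sites with a longer middle were missed. The STAT motif TTCNNNGAA stood at 8.42%, 5.35%, 6.0% and 7.18%. The CRE motif TGACGTCA was in 3.47% of promoters of rows that rose, 0.823% of those that fell and 2.63% of all tested. The HNF4 motif CANAGTCCA stood at 1.49% of promoters of rows that rose, 3.7% of those that fell and 1.08% of all tested. Both strands were searched for every motif, the motifs and examples were chosen after the changes were seen, and a match is a description of the letters only.

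RNA of proximal tubule transporters fell almost throughout. Of 32 tested solute transporters 31 fell and 1 rose, with a median log2 change of -2.38. Slc34a1, the sodium-phosphate cotransporter NaPi-IIa (mm10 chr13:55398131-55414695), had 90.8 and 97.7 FPKM at 72 h, against 1396 and 1483 FPKM at 0 h. This was 15.3-fold lower with no overlap between the groups (log2 fold change -3.92 ± 0.08, SE, limma adjusted p = 2.52e-09). Slc7a13, an acidic amino acid transporter of the late tubule, had 18.0 and 18.0 FPKM at 72 h, against 385 and 403 FPKM at 0 h (-4.38). The monocarboxylate transporter Slc5a8 had 32.1 and 31.5 FPKM at 72 h, against 271 and 274 FPKM at 0 h (-3.06). The 1 transporter above 0 h, Slc34a3 (0.42), is a row that also spans Nelfb, Stpg3, Tubb4b and Rnf224. In a bulk sample, fewer proximal tubule cells and less RNA per cell cannot be told apart, here and for every list below.

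The endocytic receptor complex that reclaims filtered protein fell with the transporters, in 11 of 14 members, while 1 rose (median -1.63). Lrp2, the giant receptor megalin, had 165 and 166 FPKM at 72 h, against 1180.0 and 1429.7 FPKM at 0 h, or 7.87-fold lower (-2.96 ± 0.16, SE). Its partners cubilin, Cubn (-3.05), and amnionless, Amn (-2.65), the scaffold Pdzk1 (-2.76) and the folate receptor Folr1 (-2.51) fell by similar amounts. Fcgrt, the albumin and IgG recycling receptor, was the 1 above 0 h (0.87), in a row that also spans neighbouring genes. Brush border peptidases fell in 12 of 13 (median -2.62). The meprin beta gene Mep1b had 2.77 and 2.32 FPKM at 72 h, against 84.9 and 94.0 FPKM at 0 h (-4.68), and its partner Mep1a fell less (-2.70). Ggt1, gamma-glutamyl transferase, fell by 3.07 on the log2 scale. Spp2, a secreted phosphoprotein, had 6.67 and 6.59 FPKM at 72 h, against 223 and 211 FPKM at 0 h, 32.7-fold lower (-4.83).

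Markers of early and of late segments were lower. All 9 tested S1 and S2 markers fell (median -3.02), as did all 14 of the S3 segment (median -1.88). These counts largely repeat rows of other lists. Every tested S1 and S2 marker but Gatm is also in the solute transporter list, and Gatm is in the creatine list. Of the S3 markers, Slc7a13, Slc16a9, Aqp1 and Slc5a1 are in the solute transporter list too. Summed over the markers, S1 and S2 stood at 317.3 and 323.2 FPKM at 72 h, against 3105 and 3190 FPKM at 0 h, and S3 at 344.9 and 338.3 FPKM at 72 h, against 1525 and 1661 FPKM at 0 h. Among S3 markers, Slc22a7, an organic anion transporter, fell by 4.11 and Slc16a9, a carnitine transporter, by 2.75 on the log2 scale. Slc22a6, the anion transporter OAT1 of early segments, fell by 2.20, in a row that also spans 9 other genes, among them Polr2g and Stx5a. The difference between the segment lists was not tested. Of the transcription factors that maintain this cell type 11 of 15 fell and 1 rose (median -1.08). Hnf4a, which drives the mature transporter program, had 24.8 and 26.1 FPKM at 72 h, against 136 and 133 FPKM at 0 h (-2.36). Maf (-1.93) and Klf15 (-2.36) also fell. Ppara, the fatty acid receptor whose targets are described below, had 12 and 13.5 FPKM at 72 h, against 11.8 and 12.9 FPKM at 0 h, so the groups overlapped (0.04, adjusted p = 0.797).

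**Figure D2:**
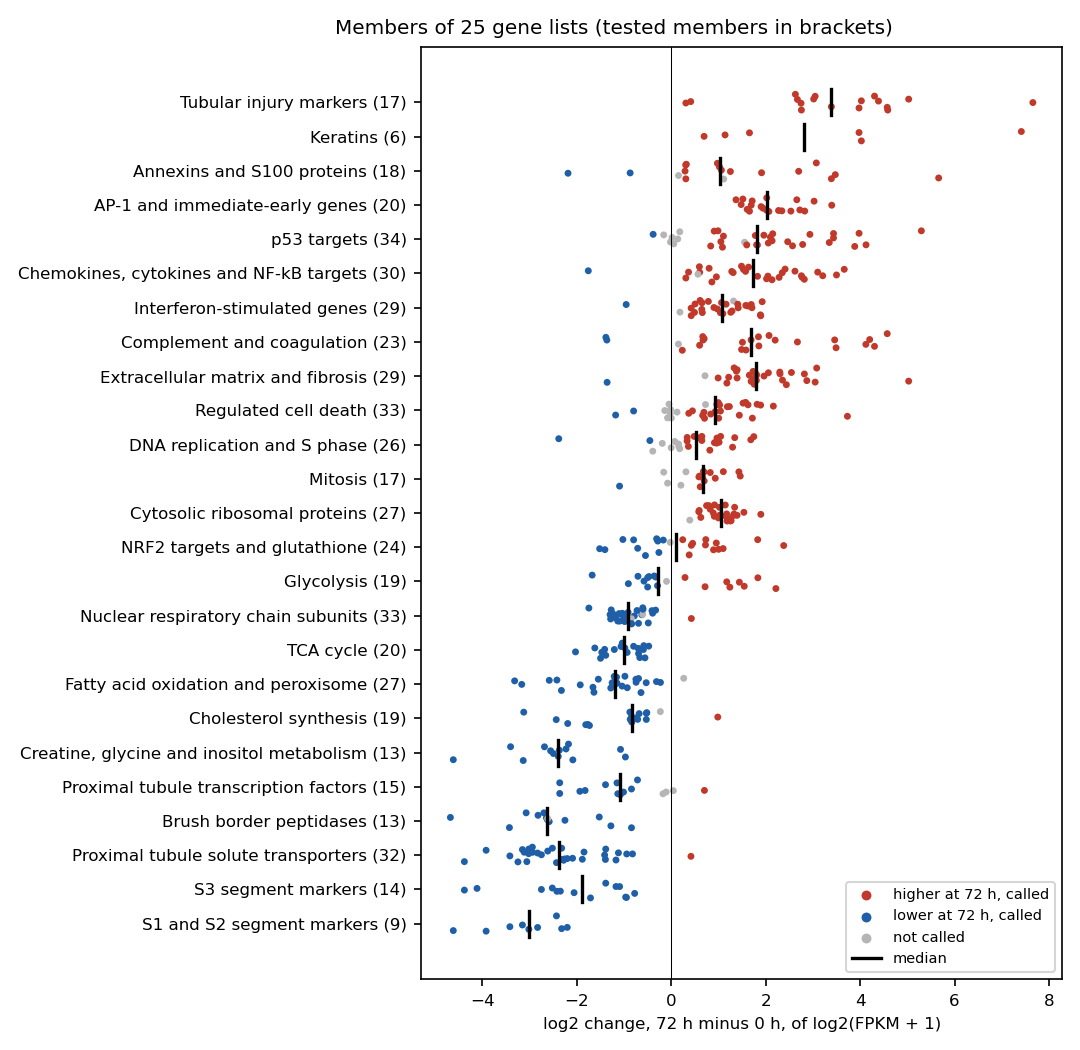
Change of 25 gene lists, with 1 list per line and the log2 fold change of FPKM + 1, 72 h over 0 h, on the x axis. Each dot is a tested member, red if it rose and blue if it fell at an adjusted p under 0.05 and grey otherwise, and the black bar is the list's median. Injury markers centre at 3.39 and S1 and S2 markers at -3.02, and the glycolysis list straddles 0, with a direction that turns under quantile normalisation.

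Most genes of glucose production, a task that cortex shares with liver, were lower. G6pc, the last enzyme of gluconeogenesis, had 10.6 and 10.2 FPKM at 72 h, against 234 and 227 FPKM at 0 h, 22.1-fold lower (-4.34 ± 0.07, SE). Pck1, the first committed enzyme, had 188 and 194 FPKM at 72 h, against 1132 and 1263 FPKM at 0 h (-2.64). Slc37a4, which carries glucose 6-phosphate to G6pc, fell by 2.59 and the fructose kinase gene Khk by 2.54 on the log2 scale. In all, 8 of 11 gluconeogenesis genes fell and 2 rose, Fbp2 (0.97) and Got1 (0.43). The Got1 call was lost without any 1 of the 72 h or 0 h libraries. Glycolysis had no single direction, with 8 of 19 genes higher and 10 lower, or 10 higher and 7 lower after quantile normalisation. Pdk4, which blocks pyruvate entry to mitochondria, rose to 39.2 and 39.9 FPKM at 72 h, against 7.34 and 8.12 FPKM at 0 h (2.22). Hk2, the inducible hexokinase, had 3.09 and 2.96 FPKM at 72 h, against 0.141 and 0.115 FPKM at 0 h (1.83), while Pfkm (-1.67), Gapdh (-0.70) and Ldha (-0.58) fell.

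Genes of oxidative metabolism were lower. Of 27 genes for fatty acid oxidation or peroxisomes 26 fell and none rose (median -1.19). Acsm2, a mitochondrial acyl-CoA synthetase, had 148 and 145 FPKM at 72 h, against 1217 and 1433 FPKM at 0 h (-3.17), Acsm1 fell by 3.32 and the peroxisomal enzyme gene Ehhadh by 2.33 on the log2 scale. All 20 TCA cycle genes fell (median -1.0), among them Idh2 (-2.03), Ogdh (-1.47) and Sdhb (-1.41). Nuclear genes of the respiratory chain fell in 30 of 33, with 1 higher (median -0.91). Atp5a1, the ATP synthase alpha subunit, had 339 and 343 FPKM at 72 h, against 850.3 and 813 FPKM at 0 h (-1.28). The 1 above 0 h, Ndufs7 (0.43), is a row that also spans Dazap1 and Rps15. Mitochondrially encoded genes fell in 7 of 10 and rose in 1 (median -0.39), or fell in 3 and rose in 4 after quantile normalisation. Their largest fall was mt-Nd3, with 5919.8 and 5645 FPKM at 72 h, against 15014 and 14351 FPKM at 0 h (-1.34). Mitochondrial ribosomal proteins fell in 20 of 30 and none rose (66.7% called, median -0.33). With mitochondrial rows removed and totals made equal, 7 rose and 11 fell.

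Amino acid and small-molecule pathways of the tubule moved the same way. All 13 genes of creatine, glycine and inositol metabolism fell (median -2.39). Gatm, which makes the creatine precursor guanidinoacetate, had 11.2 and 13.3 FPKM at 72 h, against 324 and 323 FPKM at 0 h, 26.3-fold lower (-4.61 ± 0.10, SE). Miox, the inositol oxygenase, fell by 3.40 on the log2 scale. Kynurenine and NAD synthesis genes fell in 10 of 11 (median -1.55). Acmsd, which diverts tryptophan carbon away from NAD, had 2.10 and 2.19 FPKM at 72 h, against 37.3 and 37.7 FPKM at 0 h (-3.61), and Haao fell by 2.97 and Qprt by 1.99. Nnmt, which consumes nicotinamide, was the 1 that rose (1.23). Cytochrome P450 and conjugation genes fell in 13 of 14 (median -2.31), among them Cyp2e1 (-3.27), the epoxide hydrolase gene Ephx2 (-2.38) and the row Cyp2d26, which also spans Cyp2d12 (-4.44), while Cyp1b1 rose (1.95). Inmt, an amine methyltransferase, fell by 4.30 on the log2 scale. Of 10 genes of vitamin D, hormone and cofactor metabolism 5 fell and 3 rose (median -0.63). Klotho, Kl, the FGF23 coreceptor, had 14.8 and 17.4 FPKM at 72 h, against 189.9 and 199 FPKM at 0 h (-3.52), and the parathyroid hormone receptor gene Pth1r fell by 2.89. Aldh1a1, a retinoic acid enzyme, rose by 2.58 and renin, Ren1, by 1.39. Cholesterol synthesis fell in 17 of 19 with 1 higher (median -0.84), among them Cyp51 (-3.12) and Hmgcs1 (-2.19).

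Genes that bring cisplatin into the cell fell, and genes that bind metal rose. Slc22a2, the organic cation transporter OCT2 that takes up the drug, had 11.9 and 13 FPKM at 72 h, against 114 and 116 FPKM at 0 h, 9.26-fold lower (-3.11 ± 0.07, SE). Slc31a1, the copper transporter CTR1, had 20.9 and 23.3 FPKM at 72 h, against 74.2 and 76.7 FPKM at 0 h (-1.73). The exporter rows differed among themselves. Abcc2 (MRP2) had 49.3 and 44.1 FPKM at 72 h, against 111 and 119.9 FPKM at 0 h (-1.29), Abcb1b rose to 17.2 and 17.5 FPKM at 72 h, against 3.96 and 4.18 FPKM at 0 h (1.86), and the copper pump Atp7a overlapped (0.08, adjusted p = 0.496). The row Slc47a1 (-1.41), for the extruder MATE1, also spans Slc47a2 and 11 other genes. Cyp2e1 and Ggt1, which have been tied to toxic metabolites of the drug, fell as given above. In all, 9 of 14 genes of cisplatin handling fell and 4 rose (median -1.23). Slc31a1, Abcc2, Abcb1b and Atp7a were singled out after their values were seen.

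The metallothioneins, small cysteine-rich proteins that bind zinc, copper and platinum, were raised to high levels. Mt2 had 2472 and 2423 FPKM at 72 h, against 55.8 and 50.9 FPKM at 0 h, a ratio of means of 45.9 (5.49 ± 0.12, SE, limma adjusted p = 3.71e-09). Its neighbour Mt1 had 428 and 489.6 FPKM at 72 h, against 26.8 and 26.8 FPKM at 0 h (4.04). Neither pair overlapped. The Mt2 promoter (chr8:94172368-94172617, plus strand) is shown because it holds 5 copies, in capitals, of the pattern TGCNCNC or its reverse complement. This is a loose form of the metal response core, the site of the zinc sensor MTF-1, which has A or G at the fourth base.
Mt2: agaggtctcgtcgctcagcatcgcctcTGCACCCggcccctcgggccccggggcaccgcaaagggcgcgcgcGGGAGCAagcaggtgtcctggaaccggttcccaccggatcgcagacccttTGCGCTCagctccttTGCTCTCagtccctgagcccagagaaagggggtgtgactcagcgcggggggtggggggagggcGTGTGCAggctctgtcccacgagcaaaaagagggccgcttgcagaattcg
The copies begin 223, 178, 128, 113 and 50 bases before the start. Those at 178 and 113 have T at the fourth base of the pattern and so are not the stricter core. A pattern this short and loose is common: it was in 46.5% of promoters of rows that rose by at least 4-fold, 48.6% of those that fell by at least 4-fold and 52.5% of all tested.

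Targets of p53, the transcription factor that answers DNA damage, rose in 26 of 34 and fell in 1 (median 1.82). Among the 29 that reached 1 FPKM at 0 h, 21 rose and 1 fell. Cdkn1a, which encodes the cell cycle inhibitor p21, had 92.6 and 102 FPKM at 72 h, against 1.34 and 1.67 FPKM at 0 h, a ratio of means of 64.7 (5.30 ± 0.10, SE, limma adjusted p = 1.44e-09). Mdm2, the ligase that degrades p53 and is chosen here after its value was seen, had 47.0 and 47.9 FPKM at 72 h, against 7.19 and 8.39 FPKM at 0 h (2.47). The antiproliferative gene Btg2 rose by 3.98, the Akt inhibitor gene Phlda3 by 3.89 and Plk2 by 3.44. The death receptor gene Tnfrsf10b (2.78) and the mitochondrial killers Pmaip1 (2.94) and Bbc3 (1.78), also picked afterwards, were in the same range. Xpc, a damage sensor of nucleotide excision repair, was the 1 that fell (-0.38), a call that was lost with mitochondrial rows removed and totals made equal. DNA repair genes were mixed, with 15 of 34 higher and 6 lower (median 0.23), or 11 higher and 12 lower after quantile normalisation. Of the 34, 61.8% were called, against 70.0% of all tested rows. Ercc1, the nuclease subunit that cuts out platinum adducts, had 42.5 and 40.2 FPKM at 72 h, against 5.70 and 5.36 FPKM at 0 h (2.70), while Xrcc5 (-0.64) and Parp1 (-0.60) fell.

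Immediate-early and AP-1 genes rose in all 20 tested (median 2.02), of which 9 passed the filter only through libraries taken after cisplatin and 11 reached 1 FPKM at 0 h. Atf3 had 15.2 and 16.5 FPKM at 72 h, against 0.651 and 0.536 FPKM at 0 h (3.40), Fos 12.4 and 13.1 FPKM at 72 h, against 0.940 and 0.935 FPKM at 0 h (2.83), and Jun 33.4 and 35.3 FPKM at 72 h, against 6.01 and 5.93 FPKM at 0 h (2.34). Klf6 rose by 2.66. The integrated stress and unfolded protein response was split, with 12 of 26 genes higher and 8 lower (median 0.42). Ppp1r15a (2.82), Ddit3, the death-linked factor CHOP (2.24), and Asns (1.53) rose, and the endoplasmic reticulum genes Herpud1 (-1.72) and the row Dnajc3, which also spans Mbnl2, Ubac2, Clybl, Pcca and Gm46487 (-1.19), fell. NRF2 targets and glutathione genes were divided 12 higher to 11 lower of 24 (median 0.11). Srxn1, which restores oxidised peroxiredoxin, had 101 and 106 FPKM at 72 h, against 18.9 and 19.1 FPKM at 0 h (2.38), heme oxygenase, Hmox1, rose by 1.83 and Nfe2l2, the gene of NRF2, by 1.10. Gpx1, the main glutathione peroxidase, had 559 and 582 FPKM at 72 h, against 1503 and 1519 FPKM at 0 h (-1.40). Among 19 chaperones 8 rose and 6 fell (median 0.05), with the row Hspa1b, which also spans Hspa1a (2.64), and Hspb8 (1.42) higher and the mitochondrial chaperones Trap1 (-1.69) and Hspd1 (-1.29) lower.

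Genes of regulated cell death rose in 23 of 33 and fell in 2 (median 0.93). Among the 27 that reached 1 FPKM at 0 h, 17 rose and 2 fell. The survival factor gene Mcl1 had 77.9 and 76.5 FPKM at 72 h, against 27.6 and 27.9 FPKM at 0 h (1.44). Acsl4, which loads membranes with the lipids that ferroptosis oxidises, rose by 1.89, and Gpx4, the enzyme that repairs them, had 412 and 425 FPKM at 72 h, against 731 and 724 FPKM at 0 h (-0.80). The necroptosis sensor Zbp1 rose by 1.63 and its partner Ripk3, picked after its value was seen, by 1.82, with 3.34 and 3.32 FPKM at 72 h, against 0.217 and 0.237 FPKM at 0 h. Bid was the other gene that fell (-1.18). Cell cycle inhibitors and senescence genes rose in 13 of 21, with 5 lower (median 0.75). Ccng1 rose by 2.06 and Tgfb1 by 1.81. The lysosomal galactosidase row Glb1, used as a senescence stain and here also spanning Tmppe, fell by 2.11 on the log2 scale.

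Some proliferation genes were higher at 72 h while staying low in level. Replication and S phase genes rose in 17 of 26, with 2 lower (median 0.52), a count that was 6 when rows had to reach 5 FPKM and 10 among the 18 that reached 1 FPKM at 0 h. Rrm2, which makes deoxynucleotides, had 8.34 and 8.23 FPKM at 72 h, against 1.66 and 1.88 FPKM at 0 h (1.75), and Uhrf1 rose by 1.69. Mitosis genes rose in 12 of 17 (median 0.66), against 21 with no filter and 1 at 5 FPKM, and in 3 of the 8 that reached 1 FPKM at 0 h. Top2a had 2.52 and 2.23 FPKM at 72 h, against 0.328 and 0.174 FPKM at 0 h (1.43), and Mki67, the classic marker of cycling cells picked after its value was seen, 1.04 and 1.12 FPKM at 72 h, against 0.229 and 0.358 FPKM at 0 h (0.68). The 1 lower in this list, Birc5 (-1.09), is a row that also spans Syngr2 and Afmid.

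Genes of protein synthesis and of turnover differed. Cytosolic ribosomal proteins rose in 26 of 27 and none fell (median 1.06). Rpl19 had 931 and 988 FPKM at 72 h, against 384 and 371 FPKM at 0 h (1.34), and Rps24 rose by 1.54. These genes have many near-identical pseudogenes, and how fragments were shared with those is not given. Proteasome genes rose in 15 of 30, with 2 lower (median 0.18), so 56.7% were called, against 70.0% of all tested rows. The immunoproteasome subunit gene Psmb8 was the most raised of those named (1.18). The row Psma4, which also spans Hykk, fell by 1.01 on the log2 scale. Autophagy and lysosome genes rose in 6 of 26, with 11 lower (65.4% called, median -0.16). With mitochondrial rows removed and totals made equal, 10 rose and 8 fell. Gabarapl1 fell by 2.16 and Lamp1 by 0.93 on the log2 scale. The proteases Ctsd, with 795 and 826 FPKM at 72 h, against 340.4 and 353 FPKM at 0 h (1.22), and Ctss (2.45), a cathepsin of antigen-presenting cells, rose.

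**Figure D3:**
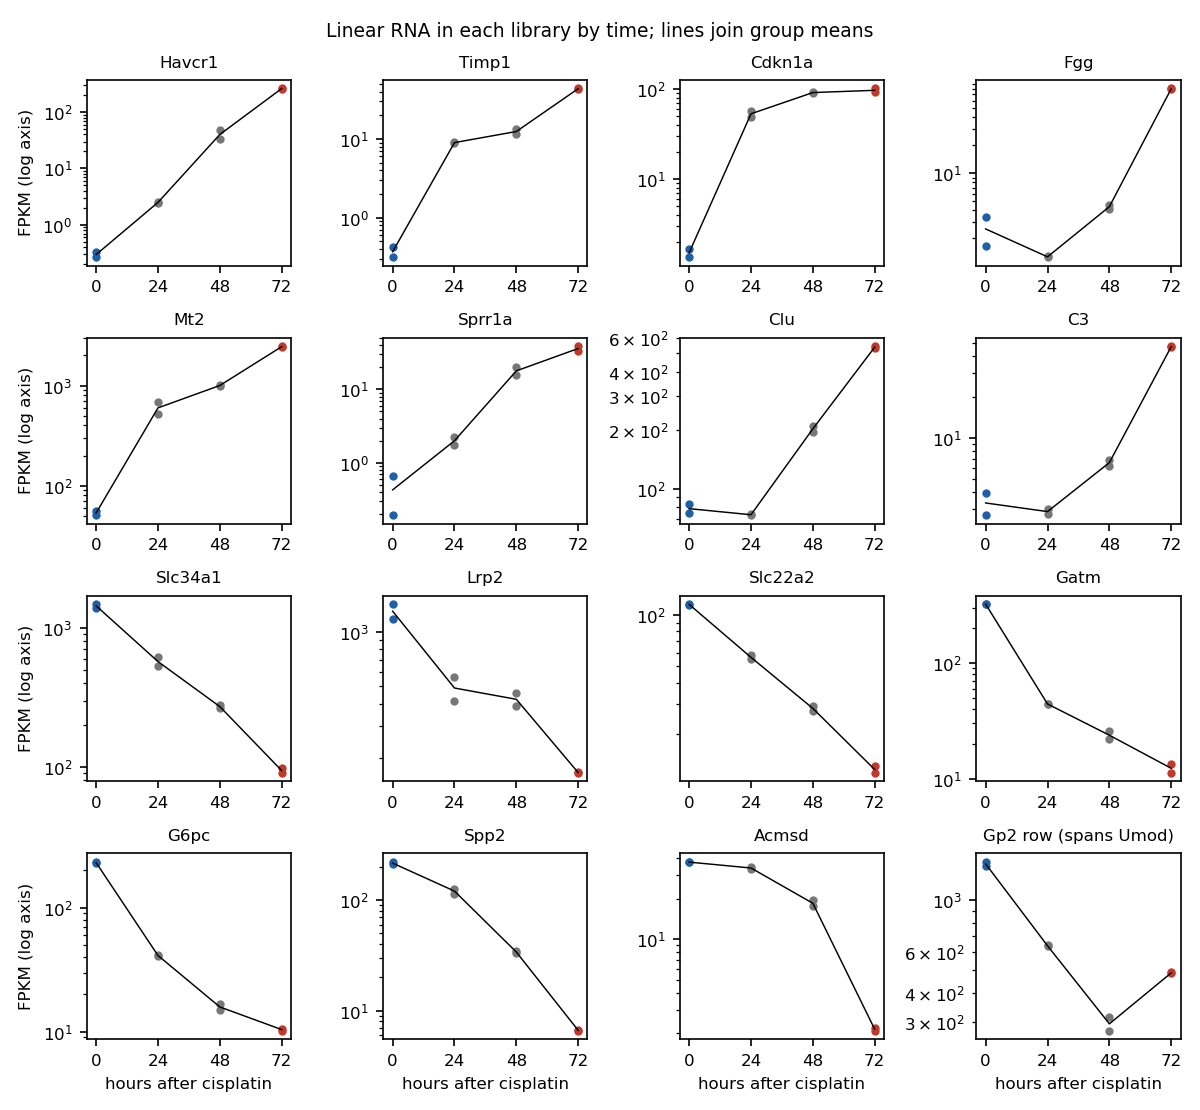
Level of 16 rows in each library at 0, 24, 48 and 72 h, in FPKM on a log axis, with 1 panel per row and 2 points per time. Havcr1 climbs at each time to 259.5 and 262 FPKM at 72 h, Fgg and C3 take their largest step between 48 and 72 h, and Acmsd and Spp2 are lowest at 72 h. The Gp2 panel is a row that also spans Umod.

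RNA of inflammatory signals was raised. Of 30 genes for chemokines, cytokines or other NF-kB targets 28 rose and 1 fell (median 1.73), although 18 passed the filter only through libraries taken after cisplatin. Among the other 12, 11 rose. Cxcl2, which draws neutrophils, had 8.73 and 9.17 FPKM at 72 h, against 0.0643 and 0.0886 FPKM at 0 h (3.21). Ccl2, which draws monocytes, had 11.4 and 10.7 FPKM at 72 h, against 0.351 and 0.452 FPKM at 0 h (3.10), and Socs3, a brake on IL-6 signalling, rose by 3.50. Cxcl12 was the 1 that fell (-1.76). Interferon-stimulated genes rose in 26 of 29 (median 1.07), or in 20 of the 23 that reached 1 FPKM at 0 h. Ifitm3 (1.93), Oasl2 (1.71) and the row Oas1a, which also spans Oas1g (1.89), were among those that rose. The 1 that fell, Ifih1 (-0.95), also spans Dpp4. Antigen presentation rose in 6 of 11 and fell in 4 (median 0.44). The peptide transporter gene Tap1 rose by 1.62, while the class II genes H2-Aa (-0.72) and H2-Eb1 (-0.69) fell. Complement and coagulation genes rose in 20 of 23, with 2 lower (median 1.69). Of the 17 that reached 1 FPKM at 0 h, 14 rose and 2 fell. C3, the hub of the complement cascade, had 47.4 and 46.7 FPKM at 72 h, against 2.70 and 3.93 FPKM at 0 h (3.49). Tissue plasminogen activator, Plat, had 203 and 214 FPKM at 72 h, against 10.9 and 9.91 FPKM at 0 h (4.20). C4b (-1.36) and the row C2, which also spans Cfb (-1.38), fell.

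Matrix, adhesion and growth factor genes followed. Among 29 matrix and fibrosis genes 27 rose and 1, Timp3 (-1.36), fell, with a median of 1.80. Of the 25 that reached 1 FPKM at 0 h, 24 rose. Col3a1, a fibrillar collagen, had 72.8 and 74.5 FPKM at 72 h, against 11.9 and 11.6 FPKM at 0 h (2.55), and Ccn1 rose by 2.87. Integrins, laminins and cytoskeleton genes rose in 27 of 33, with 3 lower (median 1.29), or in 22 of the 28 that reached 1 FPKM at 0 h. The intermediate filament gene Vim had 57.2 and 62.0 FPKM at 72 h, against 8.27 and 7.76 FPKM at 0 h (2.75). The galectins Lgals3 (3.07) and Lgals1 (2.43) and the integrin Itga3 (2.86) rose, and Itgb8 (-1.47) and Lama3 (-0.99) fell. Growth factors and receptors rose in 16 of 25 and fell in 7 (median 0.80). In the 20 that reached 1 FPKM at 0 h, 11 rose and 7 fell. Gdf15, a stress hormone, had 42.5 and 42.4 FPKM at 72 h, against 1.30 and 1.69 FPKM at 0 h (4.13), and the receptor gene Epha2 rose by 3.58 and Hbegf, an EGF receptor ligand, by 1.76. Igf1r (-1.16) and Erbb2 (-0.89) fell. Circadian clock genes rose in 11 of 16, with 5 lower (median 0.48), with Bhlhe40 (0.96) and Nr1d1 (0.81) higher and Hlf (-2.04) lower. The hour of the day at which kidneys were taken is not given.

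Several genes were listed at 0 in both 0 h libraries and therefore have no fold change. Saa1, the acute-phase serum amyloid A, had 5.88 and 6.54 FPKM at 72 h and Saa3 5.14 and 5.13 FPKM. Il24 had 3.33 and 4.49 FPKM, Ccl20 2.89 and 3.40 FPKM, and the natriuretic peptide gene Nppb 2.24 and 2.30 FPKM at 72 h. Among tested rows 28 had a whole group at 0, and a value of exactly 0 can be a failed estimate.

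Markers of other cells were measured beside these lists, since an isolate of tubules can hold other cells. Of 15 neutrophil markers with a row 8 passed the filter on low values, and 7 of these were below 1 FPKM in both 0 h libraries, so they passed only through libraries taken after cisplatin and no count is given. Without Lcn2, which injured tubule makes, the markers summed to 79.73 and 77.49 FPKM at 72 h, against 1.266 and 1.43 FPKM at 0 h. S100a8 had 32.8 and 30.9 FPKM at 72 h, against 0.317 and 0.549 FPKM at 0 h (4.52), and Il1r2 rose by 3.53. Ly6g stood at 0.225 and 0.321 FPKM at 72 h and at 0 in both 0 h libraries, and the granule gene Elane was at 0 in all 4. Macrophage and monocyte markers rose in 15 of 17 (median 1.48), or in 10 of the 12 that reached 1 FPKM at 0 h. Without the Ly6c2 row, which also spans 5 genes of the Ly6 family, they summed to 422.4 and 434 FPKM at 72 h, against 79.82 and 70.96 FPKM at 0 h. Of these sums Lgals3, also counted in the cytoskeleton list, gave 172.9 and 177.8 FPKM at 72 h and 20.05 and 19.82 FPKM at 0 h. Which cells made it was not tested. Itgam had 8.97 and 9.19 FPKM at 72 h, against 0.173 and 0.119 FPKM at 0 h (3.14). C1qa had 38.3 and 39.1 FPKM at 72 h, against 9.11 and 7.81 FPKM at 0 h, and the chitinase-like row Chil3, which also spans Chil4, rose by 5.51. Adgre1, the F4/80 antigen of mature macrophages, overlapped between groups, with 1.08 and 0.552 FPKM at 72 h, against 0.256 and 0.772 FPKM at 0 h. T and NK cell markers summed to 4.74 and 5.187 FPKM at 72 h, against 5.255 and 4.413 FPKM at 0 h, and 1 of 17 with a row passed the filter and was not called. B cell markers other than the Cd79a row, which spans Rps19 and other genes, summed to 1.903 and 2.033 FPKM at 72 h, against 2.319 and 2.176 FPKM at 0 h. The Cd79a row itself rose (1.24). Dendritic cell markers summed to 10.99 and 10.55 FPKM at 72 h, against 5.325 and 5.438 FPKM at 0 h, and 2 of 9 with a row passed the filter. Of these sums Itgax gave 3.33 and 3.46 FPKM at 72 h, against 0.546 and 0.668 FPKM at 0 h. Zbtb46 gave 3.63 and 3.41 FPKM at 72 h, against 1.73 and 1.91 FPKM at 0 h. Clec9a, Batf3 and Cd209a overlapped between groups. Which cells made these RNAs was not tested.

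Endothelial markers rose in 10 of 13 and summed to 248.7 and 250.1 FPKM at 72 h, against 121.6 and 119.1 FPKM at 0 h, with Flt1 at 1.98 and Pecam1 at 1.24. Fibroblast, pericyte and mesangial markers rose in 10 of 14 and fell in 1, summing to 327.9 and 332.4 FPKM at 72 h, against 96.43 and 90.82 FPKM at 0 h, with Pdgfra at 1.78 and the smooth muscle actin gene Acta2 at 2.36. Podocyte markers rose in 8 of 10 and fell in 1, summing to 121.2 and 131.5 FPKM at 72 h, against 71 and 63.46 FPKM at 0 h. Without Cd2ap, which tubule junctions also hold, they summed to 82.51 and 83.32 FPKM at 72 h, against 57.58 and 53.03 FPKM at 0 h. These sums moved with the inflammation, complement and matrix lists, and their part in those results was not tested. The lists are not separate: Col1a1, Col1a2, Col3a1, Dcn, Lum and Acta2 are in both the fibroblast and the matrix list. C1qa is in both the macrophage and the complement list. Shared genes move such lists together by construction. Other nephron segments were lower or mixed. Thick ascending limb markers fell in 7 of 8 and summed to 193.2 and 194.1 FPKM at 72 h, against 531.2 and 535.2 FPKM at 0 h. Cldn10 alone gave 47.1 and 47.6 FPKM of this sum at 72 h and 236.0 and 237.3 FPKM at 0 h. Whether its RNA came from this segment was not tested. Umod, the segment's secreted uromodulin, has no row of its own. The row Gp2, which also spans it, had 486 and 491 FPKM at 72 h, against 1460.2 and 1401 FPKM at 0 h (-1.55), while the row Pik3c2a, which spans it too, rose by 1.11, so no direction is given for Umod. Distal convoluted tubule markers fell in 11 of 12 and summed to 144.8 and 154.2 FPKM at 72 h, against 678.5 and 664.4 FPKM at 0 h, with Calb1 at -2.68 and the thiazide-sensitive cotransporter Slc12a3 at -2.32. Principal cell markers rose in 3 and fell in 4 of 10 (70.0% called, the share of all tested rows). With mitochondrial rows removed and totals made equal, 4 rose and 3 fell. The water channel gene Aqp2 rose to 91.2 and 102 FPKM at 72 h, against 37.2 and 29.2 FPKM at 0 h (1.52). The 4 that fell were Scnn1g (-0.78), Hsd11b2 (-0.61), Kcne1 (-0.60) and Avpr2 (-0.43). Intercalated cell markers fell in 6 of 11 and rose in 1 (63.6% called). Aquaporin and water handling genes rose in 2 and fell in 4 of 9 (66.7% called), with Aqp1 of the proximal tubule at -1.39. All 6 red cell genes fell, summing to 26.12 and 22.09 FPKM at 72 h, against 744.4 and 900.2 FPKM at 0 h. The row Hbb-bs, which also spans Hbb-bt, had 4.79 and 4.18 FPKM at 72 h, against 369.8 and 378 FPKM at 0 h (-6.10). Hba-x, a row that takes in Hba-a1 and Hba-a2 too, had 4.14 and 1.5 FPKM at 72 h, against 337 and 489 FPKM at 0 h (-6.83).

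**Figure D4:**
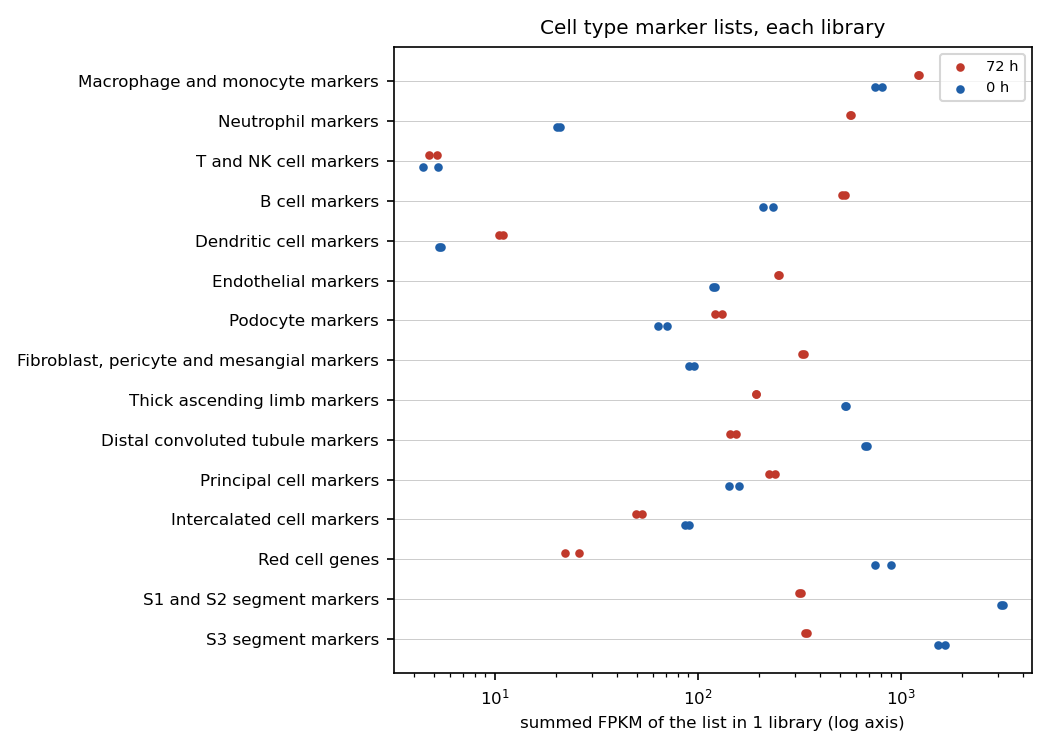
Summed FPKM of the marker genes of 15 cell types in each library, on a log axis, with 72 h libraries in red above 0 h libraries in blue. Neutrophil, macrophage, endothelial and fibroblast sums are higher at 72 h, and red cell and distal convoluted tubule sums are lower. The T and NK cell sums of the 2 groups overlap. Full sums include Lcn2, with 479.9 and 491.4 of 559.7 and 568.9 FPKM in the neutrophil sum at 72 h. The merged row Ly6c2 gave 800.3 and 802.1 of 1223 and 1236 FPKM in the macrophage sum at 72 h. Nearly all of the B cell sum is the merged row Cd79a. Without Lcn2 and Ly6c2 the neutrophil and macrophage sums were still higher at 72 h.

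Against the libraries taken 24 h earlier, 72 h tubules held more injury and matrix RNA and still less of some tubule genes. Of the 10757 rows 3999 were higher (37.2%) and 1212 lower (11.3%) at 72 h than at 48 h, 48.4% in all, with 375 and 77 changed by at least 2-fold and a median of 0.18. Without 72 h library b 800 were lower. The split rests on scale: scaling every library to one median gave 2307 higher and 2483 lower rows, quantile normalisation gave 2426 and 2465, and 2802 and 1954 with mitochondrial rows removed and totals made equal. The row mt-Co1, at 16678 and 17071 FPKM at 72 h and 19149 and 18119.7 FPKM at 0 h, was listed at 0 at 24 and 48 h. List counts against 48 h and 24 h were not recomputed under other scalings. All 17 injury markers were higher than at 48 h (median 1.31), as were 26 of 29 matrix genes. Havcr1 rose by 2.70 over its 48 h values of 32.9 and 47.2 FPKM. Fgg, at 4.18 and 4.58 FPKM at 48 h, rose by 3.92, the largest of these changes, and C3, at 6.22 and 6.92 FPKM at 48 h, by 2.67. Coq10b, a coenzyme Q binding protein, had 25.3 and 27.4 FPKM at 0 h, 2.52 and 2.49 FPKM at 48 h and 37.3 and 41.8 FPKM at 72 h, a change of 3.53 between the last 2 times. Cdkn1a, in contrast, had 93.9 and 89.9 FPKM at 48 h and did not pass the test (0.08, limma adjusted p = 0.513), and of 34 p53 targets 10 were higher and 4 lower.

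Solute transporters were lower than at 48 h in 17 of 32 and higher in 7, and brush border peptidases were lower in 10 of 13. Acmsd, at 19.5 and 17.6 FPKM at 48 h, fell by 2.63 on the log2 scale, Miox by 2.26, Spp2 by 2.19 and the secreted nuclease Dnase1 by 2.03. Of the transcription factors 9 of 15 were higher and 1 lower than at 48 h, and 14 of 19 glycolysis genes were higher. AP-1 and immediate-early genes were higher in 10 of 20 and lower in 3, among them Jun (-0.40) and Atf3 (-0.53). Against 24 h, 4053 rows were higher (37.7%) and 2125 lower (19.8%), 57.4% in all, with a median of 0.14, or 2925 and 3357 when libraries were scaled to one median and 3065 and 3180 by quantile normalisation. Havcr1, Fgg, Chil3, Crct1, Sprr1a and C3 had the largest rises over 24 h, and the globin rows, Spp2, Mep1b, Acmsd and Cyp2d26 the largest falls.

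Few circRNAs passed the test. Of 1574 circRNAs tested with edgeR on back-splice counts, 6 rose and 15 fell at 72 h, 21 in all (1.33%), and 167 had an unadjusted p under 0.05. DESeq2 called 17. The counts rest on single libraries: 1 rose without 72 h library a, 2 without 0 h library b, 3 without 0 h library a, and 11 and 13 without 24 h libraries a and b, while 8 fell without 72 h library a and 9 without 72 h library b. The split depends on scale, since with library totals in place of TMM 14 rose and 11 fell, with at least 5 counts 12 and 18, and in a fit of the 4 libraries alone 12 and 19. The fall with the smallest p lay over the glucuronosyltransferase genes Ugt3a1 and Ugt3a2 (mm10 chr15:9311749-9365377). This circRNA had 62 and 69 counts at 72 h, against 595 and 748 counts at 0 h (log2 fold change -3.53, edgeR adjusted p = 1.11e-91). The linear row Ugt3a2, which also spans Ugt3a1, fell by 3.57. A circRNA over Cyp2j9 and Cyp2j5 (chr4:96583977-96658752) had 25 and 31 counts at 72 h, against 265 and 407 counts at 0 h (-3.73), and the linear row Cyp2j9, which spans Cyp2j5 too, fell by 2.57. A circRNA of the lysine catabolism gene Aass (chr6:23107140-23122737) had 155 and 139 counts at 72 h, against 315 and 431 counts at 0 h (-1.51), and its host row fell by 2.22. In each the 72 h and 0 h counts stood apart.

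Among circRNAs that rose, that of Tulp4 (chr17:6137211-6139156) had 120 and 113 counts at 72 h, against 33 and 42 counts at 0 h (1.47, edgeR adjusted p = 1.24e-08). A circRNA of Cd2ap, an adaptor of podocyte and tubule junctions, had 90 and 68 counts at 72 h, against 29 and 30 counts at 0 h (1.24), beside a rise of 1.78 of its host row. That of the Polycomb cofactor gene Aebp2 had 21 and 23 counts at 72 h, against 1 and 6 counts at 0 h (2.48), and that of Rnf169 124 and 137 counts at 72 h, against 63 and 77 counts at 0 h (0.73). The other rises lay over Gm52481 on chromosome Y (1.58) and over the interferon-inducible genes Ifi211, Ifi203, Ifi202b and Ifi205 on chromosome 1, with 12 and 5 counts at 72 h, against 0 and 1 counts at 0 h. The calls of Cd2ap, Aebp2, Rnf169 and these last circRNAs were lost when 1 library was left out, as were those of Mlxipl (-1.18), Bnc2 (-1.07), 1 circRNA of Arhgap32 (-1.28) and 1 outside any gene on chromosome 16 (-1.95) among the falls. So were those of a circRNA of Tcf20 (-0.94), a second of Arhgap32 (-2.86), and those of Them7 (-1.18), Arhgap10 (-1.24) and Pkhd1 (-1.10). The other circRNA of Tcf20 (-1.26) was called in every such fit. Of the uncalled circRNAs with the most reads, that of Gigyf2 had 229 and 231 counts at 72 h, against 168 and 164 counts at 0 h (0.28, adjusted p = 0.529), and that of Rasa2 stood at -0.07. Genes of circRNA biogenesis and turnover rose in 11 of 23 and fell in 2 (median 0.41), with Mbnl1 at 0.84. That is 56.5% called, below the 70.0% of all tested rows.

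**Figure D5:**
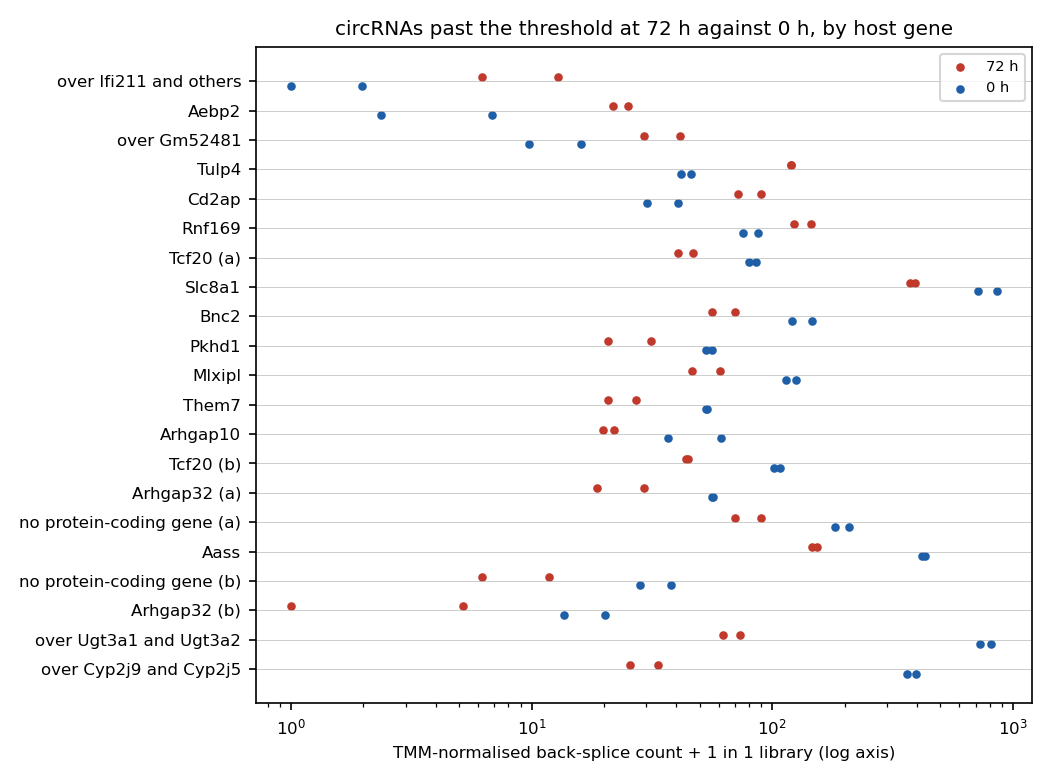
The 21 circRNAs called at 72 h against 0 h, by TMM-normalised count + 1 on a log axis, with 72 h libraries in red and 0 h libraries in blue. The circRNAs over Ugt3a1 and Ugt3a2 and over Cyp2j9 and Cyp2j5 show the widest gaps.

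Each circRNA was also set against the linear row of its host gene in the same library. Of 1212 pairs 3 differed (0.248%), all relatively higher at 72 h, and 146 had an unadjusted p under 0.05. The circRNA of the sodium-calcium exchanger gene Slc8a1 (chr17:81647809-81649638), a single large exon known as an abundant circle, had 378 and 373 counts at 72 h, against 627 and 735 counts at 0 h (-1.04). Its host row had 11.5 and 16.1 FPKM at 72 h, against 64.8 and 66.3 FPKM at 0 h (-2.19), so that the circle was 1.16 ± 0.16 (SE) higher relative to its host on the log2 scale (limma adjusted p = 0.0138). A circRNA of Dnm3 had 8 and 6 counts at 72 h and 0 in both 0 h libraries, and passed relative to its host (adjusted p = 0.0194). The circRNA of Kmt2a had 18 and 14 counts at 72 h, against 11 and 16 counts at 0 h, and passed (adjusted p = 0.0319) beside a host row that fell by 3.61 and also spans Tmem25 and Ttc36. None of the 3 calls held in every fit with 1 library left out. Where the host row fell by at least 2-fold, 73 circRNAs of 55 hosts had a median change of -0.42 against -1.42 for their hosts, and 49 had lower and 24 higher point estimates at 72 h, with 3 of the 73 called. Where the host rose by at least 2-fold, 45 circRNAs of 37 hosts had a median of 0.57 against 1.21, with 34 higher and 11 lower point estimates and 1 of the 45 called. The circRNA medians are of edgeR log2 fold changes, while the host medians are of changes in log2(FPKM + 1), so the scales are unlike. circRNAs of 1 host are also not independent, so these medians are descriptions. In the test relative to host, low counts pull a log2(count + 1) change towards 0.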

How the data were processed

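Per the file headers, linear RNA values are FPKM, 1 for each row in each library. For circRNAs the authors deposited whole back-splice counts for each pair of positions, not normalized. The submitters' processing notes list Bowtie 0.12.2, TopHat2, Cufflinks and build mm10 without roles, and the circRNA caller, filters and strandedness are not given in the sources used here. Per the labels' protocols, ribosomal RNA was removed and libraries were made with a kit named for small RNA. Column names end in a or b while titles give replicate numbers, so each was assigned to its time only. The a minus b differences of different times correlated from -0.24 to 0.393, so the letters were not taken as pairs. Another 8 columns of the circRNA table were not used.

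Rows reaching 1 FPKM in 2 or more of the 8 libraries were tested with limma 3.58.1 in R 4.3.3 (trend, robust) on log2(FPKM + 1), in 1 fit of 4 groups of 2, since 2 libraries a group leave little to estimate the spread from. Folds on this scale understate the change of low genes. circRNAs with counts above 0 in at least 4 libraries were tested with edgeR 4.0.16 (quasi-likelihood, TMM, robust), with DESeq2 1.42.0 as an alternative. A circRNA inside exactly 1 gene was compared with its host row by limma, as log2(normalised count + 1) less log2(FPKM + 1) of the host. All tests were 2-sided with Benjamini-Hochberg adjustment at 0.05. The limma test of linear RNA at 72 h against 0 h and the edgeR test were tried on simulated data. The test relative to host and DESeq2 were not. No p is given for single values of 2 libraries against 2.

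Rows were set against RefSeq spans with a tolerance of 2000 bases: of 21874 rows 14515 kept to their gene, 1395 also spanned another gene and 3010 reached past their gene. Rows of the last kind include Aass, Abcb1b, Abcc2, Acmsd, Acsm1, Anxa2, Atf3, Bhlhe40, Bid, Btg2, C1qa, C4b, Cdkn1a, Cldn2, Coq10b, Ctsd, Cyp1b1, Cyp51, Dnase1, Ehhadh, Fgb, Gdf15, Ggt1, Haao, Havcr1, Herpud1, Hk2, Hlf, Hmox1, Hspd1, Il18, Il1r2, Itga3, Itgam, Itgb8, Kl, Klf6, Lama3, Lgals3, Lrp2, Maf, Mdm2, Ndufa1, Nnmt, Nppb, Oasl2, Pdzk1, Pecam1, Phlda3, Plat, Plk2, Ppara, Qprt, Rasa2, Rps24, S100a10, Slc16a9, Slc31a1, Slc5a8, Slc7a13, Srxn1, Tgfb1, Them7 and Xpc. Promoters came from RefSeq on GRCm38.p6.

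The comparison, the 60 gene lists (1249 genes, 1124 with a row, 1009 tested) and the tests were chosen with earlier results of these data known. Named genes are the 12 largest changes each way past the threshold without overlap, up to 4 members per list by smallest p and up to 2 that moved the other way, 7 standard kidney genes, the 6 largest changes each way against 48 and 24 h, and for circRNAs up to 10 each way, the 5 with most counts and up to 5 each way relative to host. Others fall outside this rule and are said to be picked after their values were seen where so marked. Pck1, Ppara, C1qa, Ly6g, Elane and Adgre1 are among those outside it that carry no such mark. Some genes that the rule picks are not reported here.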

Additional observations from a re-analysis of the deposited data

Results flagged for a closer look

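Some genes stood on opposite sides of 0 h at 24 h and at 72 h, with both changes and the difference between 72 and 24 h past the limma threshold. Outside merged rows and predicted genes, 351 such genes were above 0 h and 61 below 0 h at 72 h. Both changes share the 0 h libraries, and these calls were made on the deposited FPKM without another scaling. Values are given for the 3 genes each way with the largest changes from 0 h, ranked by the smaller of the 24 h and 72 h changes, and for the other genes named by rule. The complement gene C7 had 4.06 and 5.78 FPKM at 0 h, 1.54 and 2.46 FPKM at 24 h, and 16 and 18.1 FPKM at 72 h, which put 72 h above 24 h by 2.60 on the log2 scale. Mgmt, which removes alkyl groups from DNA, had 4.94 and 4.10 FPKM at 0 h, 2.0 and 1.95 FPKM at 24 h, and 18.2 and 13.8 FPKM at 72 h (2.50). The basement membrane collagen gene Col15a1 had 6.03 and 5.60 FPKM at 0 h, 2.22 and 1.15 FPKM at 24 h, and 12.2 and 12.2 FPKM at 72 h (2.33). These 3 stood below 0 h first and above it later.

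The other 3 stood above 0 h at 24 h and below it at 72 h. Tmigd1, an adhesion protein of epithelium, had 71.0 and 79.4 FPKM at 0 h, 119 and 137 FPKM at 24 h, and 37.4 and 34.1 FPKM at 72 h (-1.81). Dlg2 had 1.41 and 1.02 FPKM at 0 h, 3.70 and 2.46 FPKM at 24 h, and 0.303 and 0.188 FPKM at 72 h (-1.70), all low values. Ndufa1, a complex I subunit, had 62.4 and 58.4 FPKM at 0 h, 101 and 94.3 FPKM at 24 h, and 35.3 and 34.1 FPKM at 72 h (-1.47), in a row that overlaps Rnf113a1.

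Another 7 genes lay below 0 h at 24 h and above it at 72 h. Fgg had 1.67 and 3.39 FPKM at 0 h, 1.28 and 1.26 FPKM at 24 h, and 79.9 and 81.2 FPKM at 72 h, a difference between 72 and 24 h of 5.17 on the log2 scale. Coq10b had 25.3 and 27.4 FPKM at 0 h, 3.50 and 3.50 FPKM at 24 h, and 37.3 and 41.8 FPKM at 72 h (3.17). Cldn1 had 7.71 and 9.30 FPKM at 0 h, 4.85 and 5.54 FPKM at 24 h, and 40.3 and 41.0 FPKM at 72 h (2.75). The same difference was 2.63 in Lgals1, 1.71 in the endothelial receptor gene Eng, 1.71 in Fbp2 and 0.88 in Got1.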

How the results depend on the processing

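Of the settings tried, some moved counts of called rows by over 1.5 times. For 72 h against 0 h, 2687 rows rose when rows had to reach 5 FPKM. For 72 h against 48 h, 2307 rose and 2483 fell with the same median in every library, 2426 rose and 2465 fell after quantile normalisation, and 1954 fell with mitochondrial rows removed and totals made equal. For 72 h against 24 h, 3357 fell with the same median. In 6505 rows that keep to their own gene, an alternative chosen after seeing the data, 2533 rose and 2057 fell against 0 h, 2605 and 602 against 48 h, and 2700 and 1111 against 24 h, with fewer rows tested. With 1 library left out, between 3557 and 4164 rows rose and 3090 to 3582 fell against 0 h, 2886 to 4221 and 800 to 1308 against 48 h (800 without 72 h library b), and 3334 to 3981 and 1701 to 2164 against 24 h. circRNA calls were less stable: 14 rose with library totals, 12 with at least 5 counts and 12 in the fit of 4 libraries, and with 1 library left out 1 to 13 rose and 8 to 19 fell. Only 1 rose without 72 h library a, 2 without 0 h library b and 3 without 0 h library a, and 11 and 13 without 24 h libraries a and b, while 8 fell without 72 h library a and 9 without 72 h library b. Relative to host, 0 to 4 rose and 0 to 1 fell in the same fits, 0 without 0 h library b, 72 h library a or either 48 h library, and 1 without 0 h library a or 72 h library b. The causes were not tested.

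With the column letter as a replicate block, 4021 rows rose and 3464 fell against 0 h, 3888 and 1161 against 48 h, and 4005 and 2093 against 24 h. For circRNAs 8 rose and 15 fell, and relative to host 1 rose, Slc8a1. Of all settings run on the named genes, 0 reversed a direction and 14 ended a call: Got1 with no filter or without either 72 h or 0 h library, mt-Atp8 after quantile normalisation, Xpc, Mcm10, Esrp2 and Avpr2 with mitochondrial rows removed, Avpr2 without library a of 72 h or 0 h, and Mcm10 without library b of 72 h or 0 h. FPKM give no depth, so counting error of low rows is unknown, and 2 libraries a group limit every test.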

Other observations

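The row Ints2, which also spans Med13, had 0 and 146 FPKM at 72 h and 0 in both 0 h libraries, and the row Lig3, which also spans Zfp830, 0 and 10.5 FPKM at 72 h and 0 in both 0 h libraries. Each value rests on 72 h library b alone and neither passed the test.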
